A study of Mus musculus with 8 samples.

Results

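The genes described here encode hormones and plasma proteins that the liver releases and that are known for their part in fasting, fuel use and metabolic stress. They are Fgf21, Angptl4, Igfbp1, Igfbp2, Inhbe, Gdf15, Angptl6, Fetub and Lect2, a list of 9 genes chosen by name. Of these, 8 had a probe set that names the gene alone and were measured here, among 19938 genes tested in all; Gdf15 was not analysed here. Each of the 8 was read by a single probe set. The data came from 8 arrays (Affymetrix Mouse Gene 1.0 ST, a 1-colour platform), with liver RNA of C57BL6 mice, also labelled BL6J, that had been fasted for 17 h. Hydrogen water (4 arrays), which is water with dissolved molecular hydrogen, was drunk for 4 weeks from 7 weeks of age, and the controls (4 arrays) were fasted for the same 17 h. Titles and descriptions gave each sample's group, because the treatment text reads alike for all 8 samples; it names hydrogen water for the controls too and does not say what they drank. Neither sex nor any altered allele is named for either group.

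In fasting, low insulin and high fatty acid supply change what hepatocytes secrete. The nuclear receptor PPARalpha, which fatty acids activate, drives Fgf21 and Angptl4. The transcription factor FOXO1, which insulin keeps out of the nucleus, drives Igfbp1. The stress factor ATF4, made when amino acids run short or proteins misfold, can also drive Fgf21. All values below are log2 signals, so that a difference of 1 is a doubling of signal, and signals of different probe sets are not set against each other.

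The arrays were alike in scale, with a median log2 signal between 5.27 and 5.37 over all probe sets and correlations between arrays of 0.988 to 0.995. On average, control 3 correlated with the other controls at 0.989, and the other 7 arrays with their groups at 0.992 to 0.994. The hepatocyte markers Alb and Ttr, for albumin and transthyretin, averaged 14.33 ± 0.05 and 13.77 ± 0.05 with hydrogen water, and 14.38 ± 0.07 and 13.76 ± 0.06 in controls (SD, n = 4 each). Markers of other liver cells were less even. Krt19, a marker of cholangiocytes, the bile duct cells, was at 6.78 on control 2 and between 5.11 and 5.84 on the other arrays. Its difference was −0.40 (limma adjusted p = 0.816). The mean of 5 cholangiocyte markers, centred per gene, was likewise highest on control 2 (0.40). Clec4f, a Kupffer cell lectin, had 8.17, 8.51, 8.34 and 8.60 with hydrogen water, and 7.99, 8.08, 8.14 and 7.69 in controls. Stab2, a scavenger receptor of sinusoidal endothelial cells, had 7.95, 8.13, 8.39 and 8.20 with hydrogen water, and 7.93, 7.37, 7.24 and 7.90 in controls. The groups of Clec4f and of Stab2 did not overlap, as in 3.76% of all genes. Neither of these 2 genes passed the limma test over all genes (differences of 0.43 and 0.56, adjusted p = 0.638 and 0.636). The labels call the samples mice but do not state that each array is a separate animal, so p-values measure the spread between these samples, which may be technical. In bulk liver RNA, fewer cells of a type and less RNA per cell cannot be told apart.

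None of the 8 genes differed between the groups beyond the spread of the arrays once all genes were taken into account. With limma and Benjamini-Hochberg adjustment over 19938 genes, 0 of 8 had an adjusted p under 0.05, and the background was the same, 0.0% of all genes (0 of 19938). Adjusted p-values of the 8 genes lay between 0.656 and 0.997. At an unadjusted p under 0.05 there was 1 of the 8, Angptl6, against 7.17% of all genes (1429 of 19938). It was lower with hydrogen water, as were 3.57% of all genes at that threshold. The groups of 4 did not overlap in 0 of the 8 genes, beside 3.76% of all genes. With only 8 genes, 0 does not set them apart from that share. Of the 8 differences, 4 were above 0 and 4 below, with a median of −0.04, against a median of 0.00 over all genes.

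**Figure D1:**
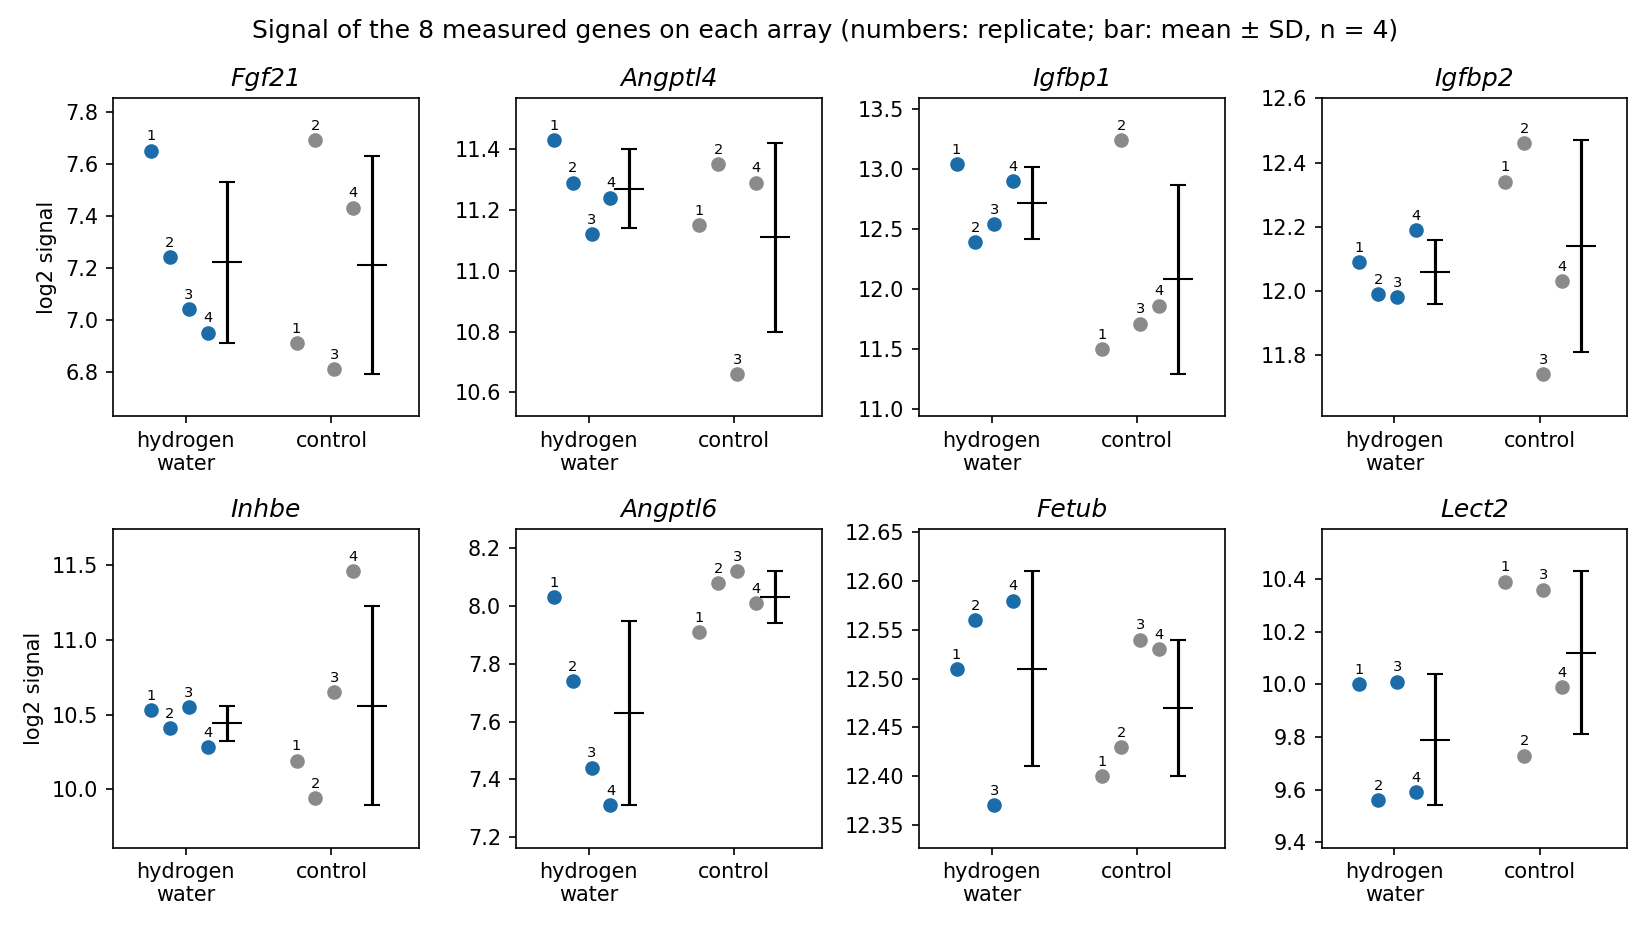
Log2 signal of the 8 measured genes on each array, hydrogen water left (blue) and control right (grey), with replicate numbers above the points and the mean ± SD beside them (n = 4 each). Igfbp1 was between 12.39 and 13.04 with hydrogen water, and control 2 at 13.24 was apart from the other controls; Angptl6 on hydrogen water 2, 3 and 4 was below every control.

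Fgf21, the fasting hormone that acts through FGF receptors together with beta-klotho, had signals of 7.65, 7.24, 7.04 and 6.95 on hydrogen water arrays 1 to 4, and of 6.91, 7.69, 6.81 and 7.43 on control arrays 1 to 4. The groups covered nearly the same range, with hydrogen water 1 and control 2 highest. Fgf21 averaged 7.22 ± 0.31 with hydrogen water and 7.21 ± 0.42 in controls (SD, n = 4 each). The difference was 0.01 (95% interval −0.44 to 0.46), so that folds from 0.738 to 1.37 lie within the interval. Its spread over the 8 arrays was large: the SD of 0.34 was above that of 93.7% of all genes.

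Angptl4, an inhibitor of lipoprotein lipase also known as the fasting-induced adipose factor, had signals of 11.43, 11.29, 11.12 and 11.24 with hydrogen water, and of 11.15, 11.35, 10.66 and 11.29 in controls. Control 3 was low, and the other 7 arrays lay within 11.12 to 11.43. The difference was 0.16 (95% interval −0.17 to 0.48; limma adjusted p = 0.878). Without control 3 it was 0.01.

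Igfbp1, a plasma carrier of insulin-like growth factors whose transcription insulin suppresses, had the largest spread of the 8 genes. Its signals were 13.04, 12.39, 12.54 and 12.90 with hydrogen water, and 11.50, 13.24, 11.71 and 11.86 in controls. All 4 hydrogen water arrays were above controls 1, 3 and 4, but control 2 was the highest of all 8 arrays. From the lowest to the highest array the signal differed 3.35-fold, and the SD of 0.65 was above that of 99.5% of all genes. Igfbp1 averaged 12.72 ± 0.30 with hydrogen water and 12.08 ± 0.79 in controls (SD, n = 4 each). The difference of 0.64 (95% interval −0.04 to 1.32) did not pass the test (limma adjusted p = 0.716; exact permutation p = 0.2, two-sided). It was 1.03 without control 2, with a limma adjusted p of 0.514, and 0.45 without control 1; over 16 alternative fits the limma adjusted p lay between 0.514 and 0.976.

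Igfbp2, a second carrier of insulin-like growth factors, had signals of 12.09, 11.99, 11.98 and 12.19 with hydrogen water, and of 12.34, 12.46, 11.74 and 12.03 in controls. The hydrogen water arrays lay inside the range of the controls. The difference was −0.08 (95% interval −0.40 to 0.25; limma adjusted p = 0.943), and it was 0.03 without control 2 and −0.21 without control 3.

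The promoters of Fgf21, Igfbp1 and Inhbe are shown because they hold the letters of elements for the ATF4 and insulin control described above. Windows ran from 250 bases before to 50 after the annotated start, were found for 8 of the 9 listed genes, and were taken from RefSeq (GRCm38.p6), 5′ to 3′ on the gene's strand. Capitals mark matches, on either strand, to CAAAACA (core of the insulin response sequence bound by FOXO factors), GTAAACA (forkhead consensus), TGATGNAA (core of the composite element bound by ATF4 with C/EBP proteins), AGGTCA (nuclear receptor half-site) and TATAAA (the TATA box); no matches overlapped within these windows.
Fgf21, chr7:45615441-45615740, minus strand: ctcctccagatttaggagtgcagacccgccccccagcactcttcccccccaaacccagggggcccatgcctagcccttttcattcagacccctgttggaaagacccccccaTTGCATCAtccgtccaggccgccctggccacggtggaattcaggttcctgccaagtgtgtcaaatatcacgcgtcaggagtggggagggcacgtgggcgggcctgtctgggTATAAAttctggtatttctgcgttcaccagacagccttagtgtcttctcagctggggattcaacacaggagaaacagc
Igfbp1, chr11:7197537-7197836, plus strand: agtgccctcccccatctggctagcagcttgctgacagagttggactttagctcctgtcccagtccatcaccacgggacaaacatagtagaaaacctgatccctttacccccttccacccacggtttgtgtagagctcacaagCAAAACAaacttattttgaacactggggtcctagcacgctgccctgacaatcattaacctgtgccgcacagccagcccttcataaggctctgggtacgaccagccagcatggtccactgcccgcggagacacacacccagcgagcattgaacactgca
Inhbe, chr10:127351799-127352098, minus strand: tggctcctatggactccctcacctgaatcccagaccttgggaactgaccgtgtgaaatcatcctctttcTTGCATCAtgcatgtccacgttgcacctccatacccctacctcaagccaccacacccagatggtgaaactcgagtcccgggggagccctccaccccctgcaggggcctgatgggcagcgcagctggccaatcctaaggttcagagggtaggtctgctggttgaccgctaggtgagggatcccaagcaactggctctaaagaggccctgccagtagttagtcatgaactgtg
In Igfbp1 the insulin response core CAAAACA began 108 bases before the start; 6.28% of all 32851 promoter windows of this length held it. In Fgf21 and in Inhbe the ATF4 core was read on the opposite strand, as TTGCATCA, and began 139 and 181 bases before the start; 3.97% of all windows held this motif. Fgf21 also had a TATA box 28 bases before its start, as 13.6% of all windows did somewhere. Matches in windows not shown were a TATA box 31 bases before a start of Fetub, the forkhead consensus on the opposite strand 236 bases before a second start of Fetub (3.65% of all windows), and AGGTCA 55 bases before a start of Gdf15 (16.3% of all windows). A match is a description of the letters, not a measured site. Fgf21 and Inhbe, which share the ATF4 core, had little correlation over the 8 arrays (Pearson r = 0.03, exact p = 0.958; Spearman rho = −0.17, exact p = 0.703; adjusted p = 0.999 and 0.925 over 28 pairs), but their r was 0.70 without hydrogen water 1 and control 2.

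Inhbe encodes the beta-E subunit of activin E, a TGF-beta family protein made mainly by the liver. Its signals were 10.53, 10.41, 10.55 and 10.28 with hydrogen water, and 10.19, 9.94, 10.65 and 11.46 in controls. The hydrogen water arrays kept within 0.27 of each other, while the controls spread over 1.52, with control 4 highest and control 2 lowest of all arrays. Inhbe averaged 10.44 ± 0.12 with hydrogen water and 10.56 ± 0.67 in controls (SD, n = 4 each). The difference was −0.12 (95% interval −0.67 to 0.44; limma adjusted p = 0.953). Without control 4 it was 0.18, so that 1 array sets its sign.

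Angptl6, an angiopoietin-like hormone known in mice to oppose obesity, had signals of 8.03, 7.74, 7.44 and 7.31 with hydrogen water, and of 7.91, 8.08, 8.12 and 8.01 in controls. Hydrogen water 2, 3 and 4 were below the lowest control, and hydrogen water 1 lay among the controls. Angptl6 averaged 7.63 ± 0.32 with hydrogen water and 8.03 ± 0.09 in controls (SD, n = 4 each). The difference of −0.40 (95% interval −0.72 to −0.08) corresponds to a fold of 0.757. It had an unadjusted p of 0.0182 and did not pass over all genes (limma adjusted p = 0.656, and 0.39 to 0.976 over 16 alternative fits; exact permutation p = 0.0857, two-sided). It kept its sign with each array left out in turn, at −0.53 to −0.29.

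Angptl6 was also set against the 9 lists of cell type markers on the same arrays. The mean of 10 markers of stellate cells and fibroblasts, centred per gene, was 0.19, 0.02, −0.26 and −0.27 on hydrogen water arrays 1 to 4, and −0.02, 0.18, 0.10 and 0.06 in controls 1 to 4. Over the 8 arrays it followed Angptl6 with a Pearson r of 0.94 (exact p = 0.00265) and a Spearman rho of 0.88 (exact p = 0.00724), with adjusted p-values of 0.214 and 0.139 over 96 relations. Without hydrogen water 3 and hydrogen water 4 this r was 0.65, and with the group means removed it was 0.96. Of these 10 markers 3 had a difference above 0 and 7 below, and 0 passed the limma test. The list of 12 Kupffer cell markers had an r of −0.78 with Angptl6 (exact p = 0.0207; Spearman rho = −0.45, exact p = 0.267; adjusted p = 0.284 and 0.694), and −0.55 without hydrogen water 4 and control 4. The mean of the Kupffer cell list lay between −0.14 and 0.60 with hydrogen water and between −0.40 and 0.14 in controls, and 12 of its 12 markers had a difference above 0, with 0 called. The list of 10 sinusoidal endothelial markers had a Pearson r of −0.65 with Angptl6 (exact p = 0.086) and a Spearman rho of −0.88 (exact p = 0.00724; adjusted p = 0.486 and 0.139). That r was −0.80 without hydrogen water 2 and control 2, and −0.43 with the group means removed. The mean of this list lay between −0.18 and 0.43 with hydrogen water and between −0.46 and 0.08 in controls, and 10 of its 10 markers had a difference above 0, with 0 called. Angptl6 and 4 pancreatic acinar markers had an r of 0.66 (exact p = 0.0812) and a rho of 0.74 (exact p = 0.0458). Adjusted p-values there were 0.486 and 0.416, and r was 0.34 without hydrogen water 4 and control 3. Against 10 hepatocyte markers r was −0.58 (exact p = 0.122, adjusted p = 0.587). For the remaining marker lists r lay between −0.40 (erythroid cells) and 0.30 (cholangiocytes). The part of any of these cells in the Angptl6 values was not tested.

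Fetub encodes fetuin-B, a cystatin-like plasma protein that inhibits the egg protease ovastacin. It was the steadiest of the 8 genes, at 12.51, 12.56, 12.37 and 12.58 with hydrogen water, and at 12.40, 12.43, 12.54 and 12.53 in controls. All 8 arrays lay within 0.21 of each other, and only 3.22% of all genes had a smaller SD. The difference was 0.03 (95% interval −0.18 to 0.24; limma adjusted p = 0.972), which leaves folds from 0.883 to 1.18 inside the interval.

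Lect2 encodes leukocyte cell-derived chemotaxin 2, a hepatokine that attracts neutrophils. Its signals were 10.0, 9.56, 10.01 and 9.59 with hydrogen water, and 10.39, 9.73, 10.36 and 9.99 in controls. Hydrogen water 2 and hydrogen water 4 were below every control, and the other hydrogen water arrays lay between controls 4 and 3. Lect2 averaged 9.79 ± 0.25 with hydrogen water and 10.12 ± 0.31 in controls (SD, n = 4 each). The difference was −0.33 (95% interval −0.69 to 0.03), which did not pass (limma adjusted p = 0.727; exact permutation p = 0.171, two-sided). With each array left out in turn it stayed between −0.46 and −0.24.

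**Figure D2:**
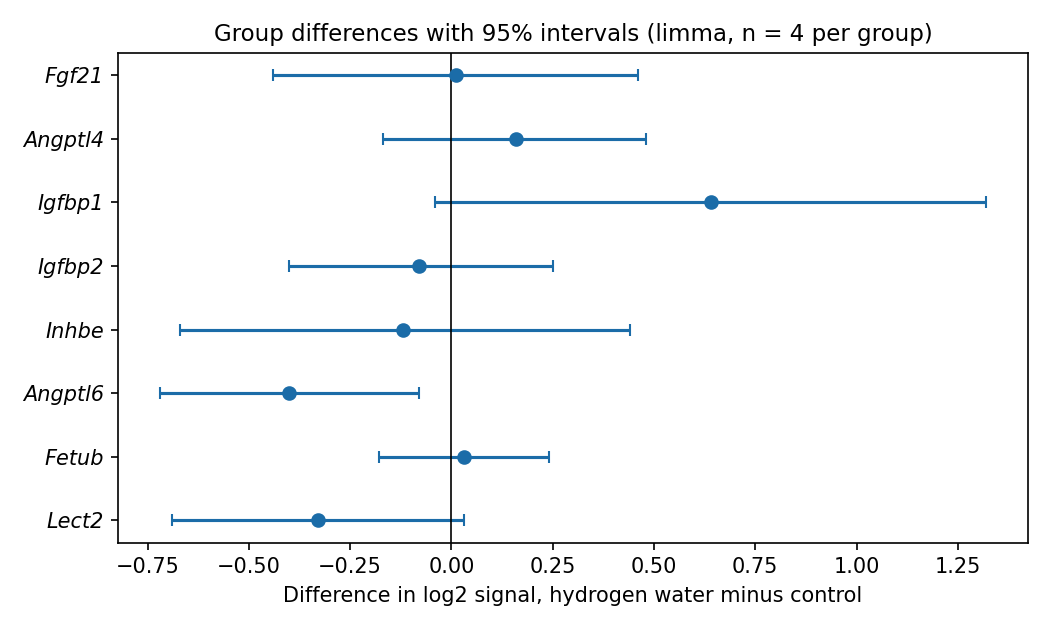
Difference in log2 signal, hydrogen water minus control, for the 8 genes (points) with 95% intervals from limma (bars, n = 4 per group). The interval of Angptl6 (−0.72 to −0.08) lies below 0 and the other 7 include 0; intervals are not adjusted for the number of genes, and 0 of 8 passed the adjusted test.

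The 8 genes differed in how steady they were. Spread over the 8 arrays was above the median SD of all genes (0.18) for 7 of them, Fetub being the exception. Within groups, 6 of 8 had the larger SD in controls, against 52.7% of all genes. The ratio of the control SD to the hydrogen water SD was 5.42 for Inhbe, a value that 1.6% of all genes reached, 3.29 for Igfbp2, 2.6 for Igfbp1 and 2.44 for Angptl4. Single controls carried much of this. The control SD of Igfbp1 was 0.18 without control 2, that of Angptl4 was 0.10 without control 3, and that of Inhbe was 0.36 without control 4 (n = 3 each). Angptl6 went the other way, with a ratio of 0.289. The ratios were not tested.

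**Figure D3:**
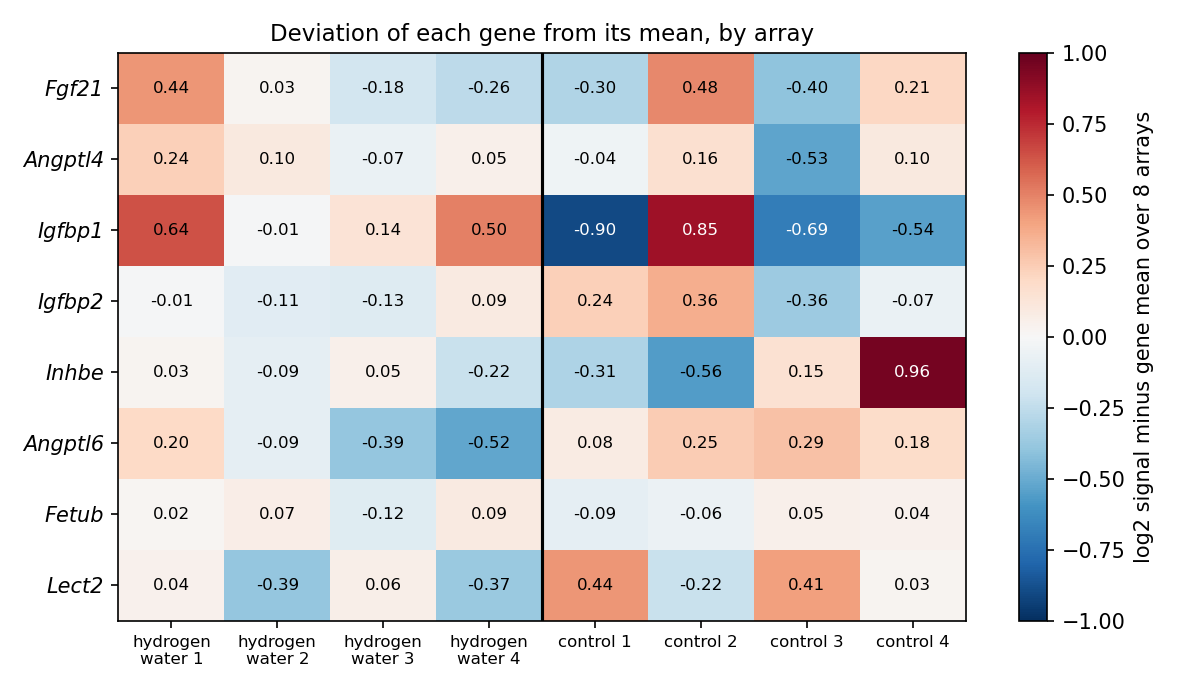
Deviation of each gene from its own mean over the 8 arrays (log2), by array, hydrogen water left of the line and control right; red is above and blue below the mean. Control 2 was above the mean in Fgf21 (0.48), Igfbp1 (0.85) and Igfbp2 (0.36), control 3 was below it in Fgf21, Angptl4, Igfbp1 and Igfbp2, and control 4 stood out in Inhbe (0.96).

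Single arrays were high or low in several of the genes. Control 2 was the highest control in Fgf21, Angptl4, Igfbp1 and Igfbp2. Control 3 was the lowest control in Fgf21, Angptl4 and Igfbp2. Among hydrogen water arrays, number 1 was the highest in Fgf21, Angptl4, Igfbp1 and Angptl6.

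Pairs of the 8 genes were compared over the 8 arrays (28 pairs, 16 with a positive and 12 with a negative Pearson r). After adjustment over the 28 pairs, 0 had an exact permutation p under 0.05, and 1 did before adjustment. An absolute r of at least 0.7 was reached by 2 of 28 pairs, or 7.14%, against 7.34% of all pairs of tested genes. The closest pair was Fgf21 and Angptl4, both PPARalpha targets, with a Pearson r of 0.75 (exact p = 0.00856) and a Spearman rho of 0.90 (exact p = 0.00456), and adjusted p-values of 0.24 and 0.128. Their r was 0.69 without hydrogen water 1 and control 2, 0.87 without control 3, and 0.80 with the group means removed. An absolute r of at least that over all 8 arrays was reached to Fgf21 by 3.41% of all genes. To Angptl4 it was reached by 8.22%. A part of PPARalpha in the likeness of Fgf21 and Angptl4 was not tested. The most opposed pair by Pearson r was Igfbp1 and Lect2, with a Pearson r of −0.71 (exact p = 0.0583) and a Spearman rho of −0.55 (exact p = 0.171), and adjusted p-values of 0.494 and 0.673. This r was −0.54 without control 1 and control 2, and −0.59 with the group means removed. By Spearman rho, Igfbp2 and Inhbe were the most opposed, at −0.81 (exact p = 0.0218), with a Pearson r of −0.59 (exact p = 0.124) and adjusted p-values of 0.305 and 0.494; their r was −0.51 without control 2 and control 3. Igfbp1 followed Fgf21 with an r of 0.62 (exact p = 0.11; Spearman rho = 0.74, exact p = 0.0458; adjusted p = 0.494 and 0.428). The r of this pair was 0.08 without hydrogen water 1 and control 2, and 0.72 with the group means removed. All pairs share the same 8 arrays.

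Targets of the factors that control these hormones were described from lists, none of whose members passed the test over all genes. Of 16 measured PPARalpha targets 0 were called higher and 0 lower, and 13 had a difference above 0, with a median of 0.11. The 2 with the smallest unadjusted p were Plin2, a lipid droplet coat protein, at 13.09 ± 0.10 with hydrogen water and 12.79 ± 0.28 in controls (SD, n = 4 each), and Acot2, a mitochondrial thioesterase, with a difference of 0.31 (SE 0.15). Ppara itself had 11.13, 11.11, 11.26 and 11.67 with hydrogen water, and 11.05, 10.97, 11.05 and 10.80 in controls. The groups of Ppara did not overlap, as in 3.76% of all genes, and its difference of 0.33 did not pass over all genes (limma adjusted p = 0.687; exact permutation p = 0.0286, the smallest that 70 assignments can give).

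The mean of the PPARalpha targets over the arrays was set against each of the 8 genes, along with 2 other target lists and 9 marker lists (96 relations, chosen after the data were seen). Of these, 0 passed after adjustment and 10 had an exact p under 0.05 before it. The share of all genes that reach such values with these lists was not computed, so the count of 10 has no background. The relations share the same 8 arrays and some lists share genes, so they are not independent. The PPARalpha mean was 0.12, 0.10, −0.07 and 0.09 with hydrogen water, and −0.18, 0.15, −0.18 and −0.03 in controls. Igfbp1 followed it with a Pearson r of 0.88 (exact p = 0.00903) and a Spearman rho of 0.86 (exact p = 0.0107; adjusted p = 0.214 and 0.171), and Lect2 ran against it with an r of −0.87 (exact p = 0.00774) and a rho of −0.71 (exact p = 0.0576; adjusted p = 0.214 and 0.416). Angptl4 had an r of 0.77 (exact p = 0.00489) and a rho of 0.88 (exact p = 0.00724; adjusted p = 0.214 and 0.139). Fgf21 had an r of 0.73 (exact p = 0.0509) and the same rho of 0.88 (exact p = 0.00724; adjusted p = 0.445 and 0.139). Without control 1 and control 3, where the list was lowest, these r were 0.70 for Igfbp1, −0.60 for Lect2, 0.74 for Angptl4 and 0.48 for Fgf21. With the group means removed they were 0.84, −0.83, 0.73 and 0.82 in the same order of genes.

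**Figure D4:**
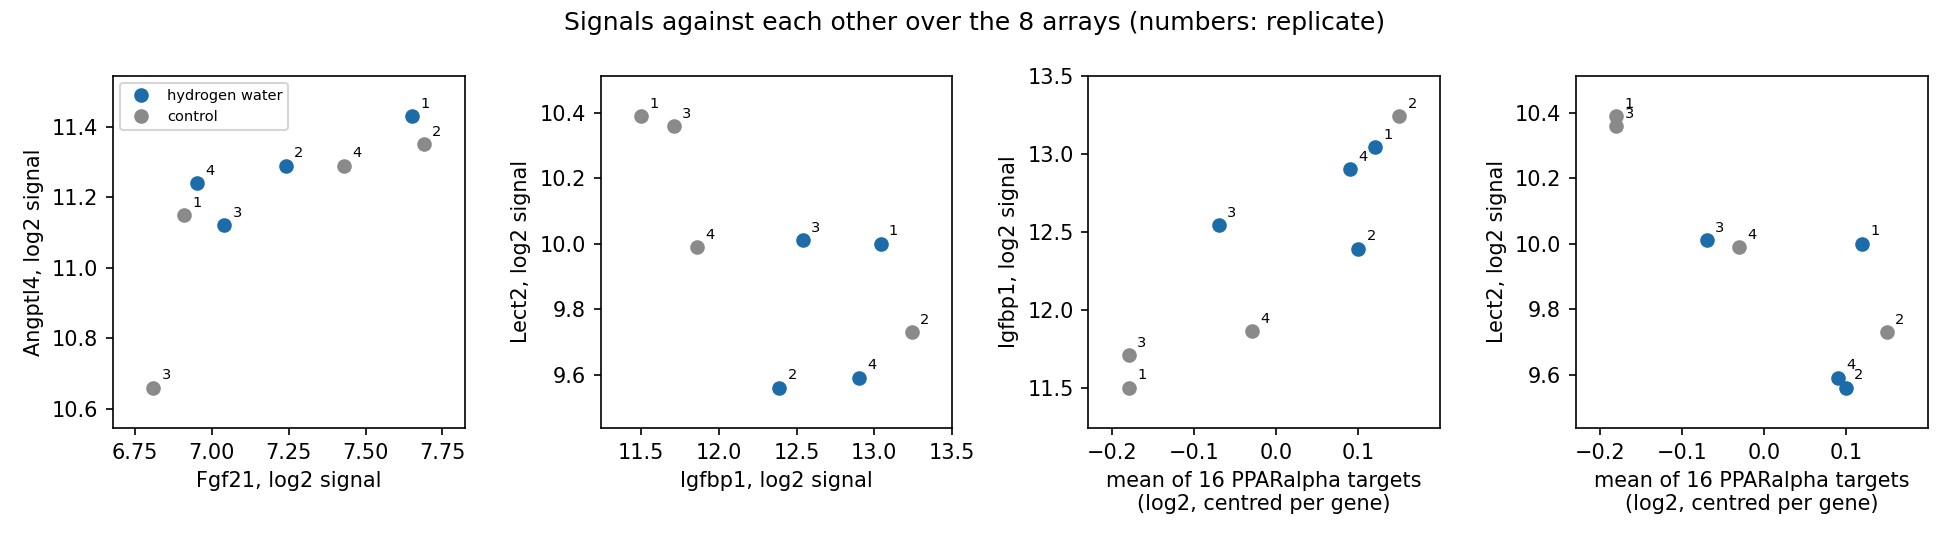
Log2 signals of Angptl4 against Fgf21 and of Lect2 against Igfbp1, and of Igfbp1 and Lect2 against the mean of 16 PPARalpha targets centred per gene, over 4 hydrogen water (blue) and 4 control arrays (grey), with replicate numbers. Controls 1 and 3 are low in the target mean and in Igfbp1 and high in Lect2; r is 0.75, −0.71, 0.88 and −0.87 from left to right, and none passed after adjustment.

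Of 20 measured genes on the ATF4 list, which holds Atf4 itself beside targets, 0 were called. A difference above 0 was found in 10 and below 0 in 10, and the median was 0.02. The 2 with the smallest unadjusted p were Atf5, a transcription factor of the amino acid response, at 0.36 (SE 0.15), and Ddit4, an inhibitor of mTOR signalling, at 1.05 (SE 0.45). Ddit4 had 8.96, 8.61, 8.31 and 9.99 with hydrogen water, and 7.06, 9.31, 8.01 and 7.29 in controls, with control 2 again the highest control. Its SD over the 8 arrays was 0.99, against a median SD of 0.18 over all genes. List means were not scaled by spread, so Ddit4 weighs more in the ATF4 mean than steadier genes do. The relations below were not run without Ddit4. Atf4 averaged 7.10 ± 0.21 with hydrogen water and 7.12 ± 0.17 in controls (SD, n = 4 each). Inhbe did not follow the ATF4 list (Pearson r = 0.01, exact p = 0.99; Spearman rho = −0.38, exact p = 0.36; adjusted p = 0.99 and 0.803 over 96 relations). The 4 members described against the PPARalpha list had these values against the ATF4 list. Angptl4 had a Pearson r of 0.73 (exact p = 0.0145) and a Spearman rho of 0.71 (exact p = 0.0576; adjusted p = 0.231 and 0.416). Igfbp1 had an r of 0.75 (exact p = 0.0437) and a rho of 0.81 (exact p = 0.0218; adjusted p = 0.445 and 0.299). Lect2 had an r of −0.74 (exact p = 0.0459) and a rho of −0.71 (exact p = 0.0576; adjusted p = 0.445 and 0.416). Fgf21 had an r of 0.63 (exact p = 0.0975) and a rho of 0.64 (exact p = 0.0962; adjusted p = 0.52 and 0.486). Without control 1 and control 3, where this list too was lowest, r was 0.54 for Angptl4, 0.39 for Igfbp1, −0.25 for Lect2 and 0.27 for Fgf21. The FOXO1 list held 15 measured genes, namely genes that FOXO1 drives or insulin suppresses, and Foxo1 and Foxo3 themselves. Of these 0 were called, 11 had a difference above 0, and the median was 0.10. Trib1, a pseudokinase, differed by 0.34 (SE 0.13), Foxo1 by 0.36 (SE 0.18) and Bcl6, a transcriptional repressor, by −1.24 (SE 0.57). Bcl6 varied widely, at 6.64, 5.79, 7.11 and 6.90 with hydrogen water, against 8.43, 9.39, 7.69 and 5.88 in controls. With an SD of 1.23 over the 8 arrays, Bcl6 likewise weighs more in the mean of the FOXO1 list. Igfbp1 followed the mean of that list with an r of 0.71 (exact p = 0.0561) and a rho of 0.69 (exact p = 0.0694). Adjusted p-values were 0.449 and 0.416, and without hydrogen water 4 and control 2 the r was 0.45.

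The partners and relatives of these hormones gave 0 calls as well. Of 16 measured receptors 8 had a difference above 0 and 8 below, with a median of 0.00. Klb, the beta-klotho coreceptor of Fgf21, averaged 10.17 ± 0.17 with hydrogen water and 10.18 ± 0.17 in controls, and Fgfr4, a hepatocyte FGF receptor, 8.88 ± 0.17 with hydrogen water and 9.05 ± 0.29 in controls (SD, n = 4 each). Ret, the coreceptor through which Gdf15 signals, and Fgfr2 had the smallest unadjusted p of this list, at −0.23 (SE 0.12) and −0.21 (SE 0.15). Of 14 measured genes of the IGF system 6 had a difference above 0 and 8 below, and the median was −0.02. Igf1, the main IGF that Igfbp1 and Igfbp2 bind, averaged 12.11 ± 0.13 with hydrogen water and 12.15 ± 0.02 in controls (SD, n = 4 each). The receptor gene Igf1r differed by 0.18 (SE 0.12) and Pappa, a protease of IGF binding proteins, by −0.13 (SE 0.09). The mean signals of Ret (5.26), Igf1r (5.66) and Pappa (4.64) were below the median level of all genes (5.87).

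Among 10 measured genes of ANGPTL proteins, lipases and proteins that act on or with them, 5 had a difference above 0 and 5 below. The median was −0.03. Angptl8, which feeding and insulin induce, had 7.42, 7.56, 7.06 and 7.38 with hydrogen water, and 8.29, 7.29, 7.77 and 9.39 in controls. Control 4 was by far the highest and control 2 lay within the hydrogen water range; the difference was −0.83 (SE 0.34; limma adjusted p = 0.687). Lpl, the lipase that Angptl4 and Angptl8 restrain, differed by −0.45 (SE 0.21). Of 12 measured genes of activins, inhibins, follistatins and other TGF-beta family proteins, 8 had a difference above 0 and 4 below. The median was 0.02. Fstl1, a follistatin-like glycoprotein, had 5.93, 6.02, 5.19 and 5.79 with hydrogen water, and 6.07, 6.33, 6.09 and 6.18 in controls. Its groups did not overlap, as in 3.76% of all genes, and it did not pass (difference −0.43, SE 0.16, limma adjusted p = 0.68). Mstn, the muscle growth inhibitor myostatin, differed by −0.23 (SE 0.12). Its mean signal of 3.4 was below the median level of all genes (5.87). Of 6 cystatin-like genes 3 had a difference above 0 and 3 below; Cstb, a cysteine protease inhibitor, differed by −0.37 (SE 0.14) and Kng1, a kininogen, by −0.05 (SE 0.09). Of 18 other secreted liver proteins 11 had a difference above 0 and 7 below, with a median of 0.01; Fgl1, a hepatocyte-secreted fibrinogen-like protein, differed by 0.22 (SE 0.13) and Selenop, the selenium carrier, by −0.16 (SE 0.11). Limma adjusted p-values of the 126 distinct genes on the 9 lists were 0.68 or above.

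The genes whose signal was most like that of the 4 most variable members were looked up among 9672 others above the median level of all genes (5.87), by Pearson r over the 8 arrays, as a description. Nearest to Igfbp1 were Sel1l3 (r = 0.96), Bco1, a carotenoid-cleaving enzyme (0.93), and Sik1, a salt-inducible kinase that cyclic AMP induces (0.93). Sik1 had 9.88, 8.92, 9.64 and 9.46 with hydrogen water, and 8.03, 9.75, 8.62 and 8.84 in controls, with control 2 the highest control. Choice by likeness to Igfbp1, which was itself highest on control 2, favours this. Nearest to Fgf21 were Wrnip1 (0.94), Gsn, the actin-severing protein gelsolin (0.93), and Cebpb, a transcription factor of the fasting and stress response (0.91). Nearest to Inhbe were the zinc finger gene Zfp282 (0.95), the repressor Erf (0.94) and Phlda1 (0.93); Phlda1 stood at 9.51 on control 4, against 7.98 to 8.30 on controls 1 to 3 and 8.18 to 8.38 with hydrogen water. Nearest to Lect2 were Gstt1, a glutathione transferase (0.94), Nudt2 (0.92) and Tatdn3 (0.91). An r of 0.90 or more was reached by 4, 4, 6 and 5 genes for Igfbp1, Fgf21, Inhbe and Lect2 in that order.

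**Figure D5:**
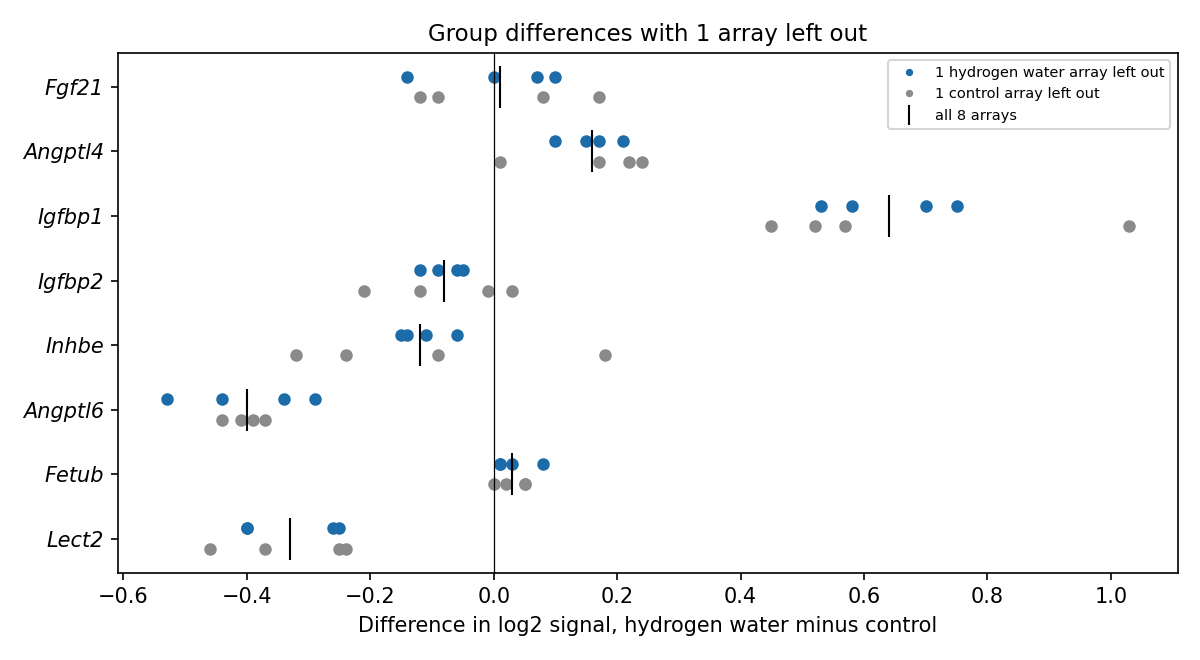
Difference in log2 signal, hydrogen water minus control, with 1 array left out (blue, a hydrogen water array; grey, a control array) and with all 8 arrays (black line), for each gene. Igfbp1 (0.45 to 1.03), Angptl6 (−0.53 to −0.29) and Lect2 (−0.46 to −0.24) stay on their side of 0 in all 8 fits, whereas Fgf21 (−0.14 to 0.17), Igfbp2 and Inhbe cross it.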

How the data were processed

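Liver RNA of fasted mice was hybridised to 8 arrays, and groups were taken from the sample titles. The authors deposited 1 table of log2 signals per probe set, for which the submitters' processing notes name Affymetrix Expression Console; its version, background correction, normalization and summarization were not given in the sources used here. The log2 scale was read from the values. Of 35556 probe sets, 21789 named 1 gene, 1621 several and 12146 are unnamed here. The platform annotation gave the symbols, which were brought up to date by Entrez identifier with RefSeq (GRCm38.p6; 19856 of 19938 genes matched); the probe set with the highest mean represented each gene, with no filter on level. Limma 3.58.1 in R 4.3.3 (lmFit, eBayes) tested hydrogen water against control over 19938 genes, two-sided, with Benjamini-Hochberg adjustment and a threshold of 0.05. Correlations had two-sided exact permutation tests over all 40320 pairings; 28 pairs of 8 measured genes stand where more had been planned for 9. Lists were described by counts and medians, and the means of 12 of them were also correlated with each gene, a choice made after seeing the data. The genes, lists and rules were chosen with earlier results of these data known. Named genes were the 8 members, 6 regulators and partners, the 2 genes of each list with the smallest unadjusted p, and the 3 genes most like each of the 4 members with the largest SD, without provisional gene models. The limma and correlation steps were tested on simulated data. Arrays have no depth: their number, 4 per group, limits the precision. Figures used matplotlib 3.10.9 in Python 3.11.15.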

Additional observations from a re-analysis of the deposited data

How the results depend on the processing

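Across 16 alternative fits, 0 of the 8 genes passed, and across the 11 fits in which the target and partner lists were recounted 0 of their genes passed. The count over all genes was 0 to 1 with 1 array left out: Sucnr1, a succinate receptor, without control 2 and Aqp8, a water channel, without control 3, named after their values were seen. It was 3 with both control 3 and hydrogen water 4 left out, a setting chosen after seeing the data, namely Aqp8, Mir297b and Usp17ld. In the other settings it was 0. Those that tested 19938 genes had 958 to 2069 genes at an unadjusted p under 0.05. With dim probe sets left out it was 786 of 9969 genes. Igfbp1, Angptl4, Angptl6 and Lect2 kept their sign throughout, at 0.43 to 1.03, 0.01 to 0.24, −0.53 to −0.26 and −0.46 to −0.18. Fgf21 turned to −0.01 with quantile normalization, −0.03 with arrays centred on their medians, −0.11 with array weights and −0.03 without control 3 and hydrogen water 4; with 1 array left out it ranged from −0.14 to 0.17. Fetub was −0.01 with centred arrays. With 1 array left out, Igfbp2 ranged from −0.21 to 0.03 and Inhbe from −0.32 to 0.18. The causes were not tested. The number of correlated pairs was 0 to 1 with 1 array left out (Igfbp2 and Inhbe without control 4, r = −0.94, exact permutation adjusted p = 0.0389) and 0 in the other settings. Averaging probe sets changed nothing for the 8 genes, each of which has 1. Same-numbered arrays did not deviate together (correlations of −0.06, 0.06, −0.03 and −0.16), and 0 of 4 hydrogen water arrays correlated best with the control of its own number. With the replicate block, 0 genes were called over all genes and 0 of the 8, the lowest adjusted p (limma) among them being 0.679, for Lect2. Correlations with that block were not run, since only 4 differences would remain.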

Other observations

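Control 4 stood apart in a few genes. It was the highest of all 8 arrays in Inhbe (11.46), in Angptl8 (9.39) and in Phlda1 (9.51). Control 1 paired a low Igfbp1 (11.50) and Sik1 (8.03) with a high Lect2 (10.39) and Angptl8 (8.29). Control 2 had the reverse, with Igfbp1 at 13.24, Sik1 at 9.75, Lect2 at 9.73 and Angptl8 at 7.29. These arrays were picked after their values were seen, and the values are given as a description. Phlda1 and Sik1 had been chosen for their likeness to Inhbe and Igfbp1 over the same arrays, so their values are not separate evidence.

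Igfbp2 ran against the mean of 7 neutrophil markers, with a Pearson r of −0.83 (exact p = 0.0111) and a Spearman rho of −0.88 (exact p = 0.00724), and adjusted p-values of 0.214 and 0.139 over the 96 relations. The r was −0.82 without hydrogen water 4 and control 3 and −0.85 with the group means removed. Igfbp2 also ran against the mean of 4 pancreatic acinar markers (r = −0.71, exact p = 0.0484, adjusted p = 0.445). The Spearman rho there was −0.55 (exact p = 0.171, adjusted p = 0.608). That r was −0.5 without the same arrays and −0.82 with the group means removed. Both marker means were highest on control 3 (0.15 each), the array with the lowest Igfbp2.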
